A study of Mus musculus with 1479 samples.

Results

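The insulin-like growth factor (IGF) genes followed here were the ligands Igf1 and Igf2, the receptors Igf1r and Igf2r, and the binding proteins Igfbp2, Igfbp3, Igfbp4, Igfbp5, Igfbp6 and Igfbp7. They were taken by name, and they make up 10 of the 46517 gene rows of the count table. Gene identifiers were matched to symbols with GENCODE release M21 for GRCm38, and each of the 10 genes had 1 row. The cells came from the urinary bladder of male mice aged 10 to 20 weeks, and each of 1479 cells was made into its own full-length Smart-seq2 library. Mice carried an Acta2GFP, Cspg4dsRED, PdgfraGFP or PdgfrbGFP reporter, in which the promoter of the named gene drives a fluorescent protein, or were C57BL6 mice with no reporter. Cells were sorted for these reporters or for surface epitopes and against the endothelial protein CD31, so no group stands for the whole bladder. The labels give a cluster from 1 to 11 for each cell. Cluster 10, with 12 Acta2GFP, 3 C57BL6, 65 Cspg4dsRED and 45 PdgfrbGFP cells, was described by the study as vascular mural cells, cluster 5, with 76 cells, as fibroblasts beneath the epithelium, and the other 9 clusters, with 1278 cells, are treated here as fibroblasts. The paper's text describes fewer bladder fibroblast clusters as a single cloud and does not number them. Cluster 4, the weakest in fibroblast markers, was kept among the 9 in every test. No treatment was given, and the 5 lines supplied 8.72% (Acta2GFP), 12.8% (C57BL6), 13.7% (Cspg4dsRED), 9.94% (PdgfraGFP) and 54.8% (PdgfrbGFP) of the cells.

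IGF1 and IGF2 are small secreted peptides that promote growth and survival of cells. Both signal through the receptor tyrosine kinase encoded by Igf1r, whereas the product of Igf2r binds IGF2 and carries it to lysosomes without such signalling. The secreted binding proteins hold the ligands in the extracellular space, where proteases can release them, and Igfbp6 encodes the member with a marked preference for IGF2. IGFBP7 resembles the others in part of its sequence but binds IGFs weakly. Connective tissue cells are a known local source of IGF1 in many organs.

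Cluster 10 was high in mural markers and the fibroblast clusters in fibroblast markers, with cluster 4 the weakest of them. Over lines, the summed level of 10 mural markers lay between 8300 and 12859 normalised reads in cluster 10 and between 64.5 and 170 in the fibroblasts outside cluster 5, while the sum of 9 fibroblast markers lay between 557 and 2224 in cluster 10 and between 15536 and 21942 in those fibroblasts. By cluster, the fibroblast sum was 9196 in cluster 4 and 15958 to 20785 in the other 9, the thinned share of cells with a Pdgfra read was 57.1% in cluster 4 against 92.3% over all fibroblast clusters, and its sums of mesothelial (72.3), endothelial (32.6) and Schwann (12.5) markers were the highest of any cluster. The part of these in the values of cluster 4 was not tested. Among markers of cells that the sort should not hold, Pecam1 (the gene of CD31) had a read in 1102 cells at a mean level of 9.31 in the fibroblasts outside cluster 5, and 1 or more of 6 immune markers were detected in 475 fibroblast-cluster cells, each marker at a mean level of 3.36 or less outside cluster 5. In cluster 5, Cd68 stood at 7.95, Csf1r at 4.75 and the other 4 at 1.75 or less. The study had already dropped cells with clear immune or endothelial profiles. The libraries held 50276 to 1446059 reads (median 214893), and the median was lowest in cluster 4 (110330) and highest in cluster 6 (306896). Clusters 9 and 11 were nearly those of 1 line, with 85 of 91 cells from Cspg4dsRED and 43 of 51 from Acta2GFP. A level is a cell's reads of a gene scaled to 500000 endogenous reads. It was averaged within each line that had at least 3 cells, then over lines, and the SD given is that between lines. The labels name no animal, so a line is taken as the replicate on the assumption that different lines are different mice, and p-values measure only the spread between lines. The cells came from 6 plates, and Acta2GFP, C57BL6 and PdgfraGFP were each on 1 plate. For these lines, line and plate cannot be told apart, so the spread between lines is also one between plates. As the clusters were drawn from the same expression values, a test here says only whether a difference recurred from line to line.

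The genes lie apart in the genome, apart from the neighbours Igfbp2 and Igfbp5. In GRCm38, Igf1 spans chr10:87858265-87937042 on the plus strand and Igf2 spans chr7:142650766-142666816 on the minus strand. Igf1r spans chr7:67952827-68233668 on the plus strand and Igf2r chr17:12682406-12769664 on the minus strand. Of the binding proteins, Igfbp2 (chr1:72824503-72852474, plus) and Igfbp5 (chr1:72857932-72874884, minus) follow each other on chromosome 1, Igfbp3 (chr11:7206086-7213923, minus) and Igfbp4 (chr11:99041244-99054392, plus) are on chromosome 11, Igfbp6 (chr15:102144362-102149511, plus) on chromosome 15 and Igfbp7 (chr5:77349240-77408041, minus) on chromosome 5. Counts were made per gene over its exons. The strand setting of the counting is not given in the sources used here, so reads of genes that overlap on the opposite strand cannot be told apart. Such partners are Airn, which overlaps part of Igf2r and had 8146 reads in all cells against 31204 for Igf2r, and Polr2b, whose 3′ end overlaps that of Igfbp7 over 85 bases and which had 51679 reads against 652817. On the same strand, the annotated gene Gm49394 (chr7:142650769-142669942) spans nearly all of Igf2. It has no row in the count table, so no reads were counted under it there. Whether this gene was in the counting annotation is not given in the sources used here.

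The binding proteins Igfbp4, Igfbp6 and Igfbp7 had the highest levels, while in the means over the fibroblast lines Igfbp2, Igfbp3 and Igfbp5 lay below the ligand Igf1. Per kilobase of exon, Igfbp6 reached a level of 948 ± 288.4 (SD, n = 5 lines) in the fibroblasts outside cluster 5, Igfbp7 797 ± 274.5 and Igfbp4 172.9 ± 37.2. Igf1 stood at 11.4 ± 4.35, Igf2r at 4.68 ± 1.55, Igfbp5 at 4.38 ± 5.41, Igfbp3 at 4.35 ± 4.31 and Igf1r at 0.628 ± 0.0551 per kilobase. In Cspg4dsRED fibroblasts the order of Igfbp5 and Igf1 was turned, at 13.61 and 5.52 per kilobase. The lowest were Igfbp2 (0.414 ± 0.348) and Igf2 (0.0954 ± 0.125). In cluster 10, Igfbp7 was the highest at 1215 ± 346 (n = 4 lines) per kilobase, followed by Igfbp4 at 119.5 ± 49.9, whereas Igfbp6 stood at 35.6 ± 20.3 and Igf1 at 0.449 ± 0.490. Igfbp6 and Igfbp7 are short, with 1112 and 1209 exon bases, and their reads came to more than 0.5 per exon base in 443 and 399 cells, up to 1.12 and 1.24. If the reads the study removed as doublets were duplicates with 1 start position, levels this close to 1 read per base would be compressed. Across the 1354 fibroblast-cluster cells, log2 reads of Igfbp6 and Igfbp7 climbed by 0.906 and 0.889 per log2 unit of depth, those of Igfbp4, which had no cell above 0.5 reads per base, by 0.959 and those of Igf1 by 1.33. In cluster 10 the slope was 0.798 for Igfbp4 and 0.760 for Igfbp7. Whether duplicate removal bears on these levels was not tested.

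**Figure D1:**
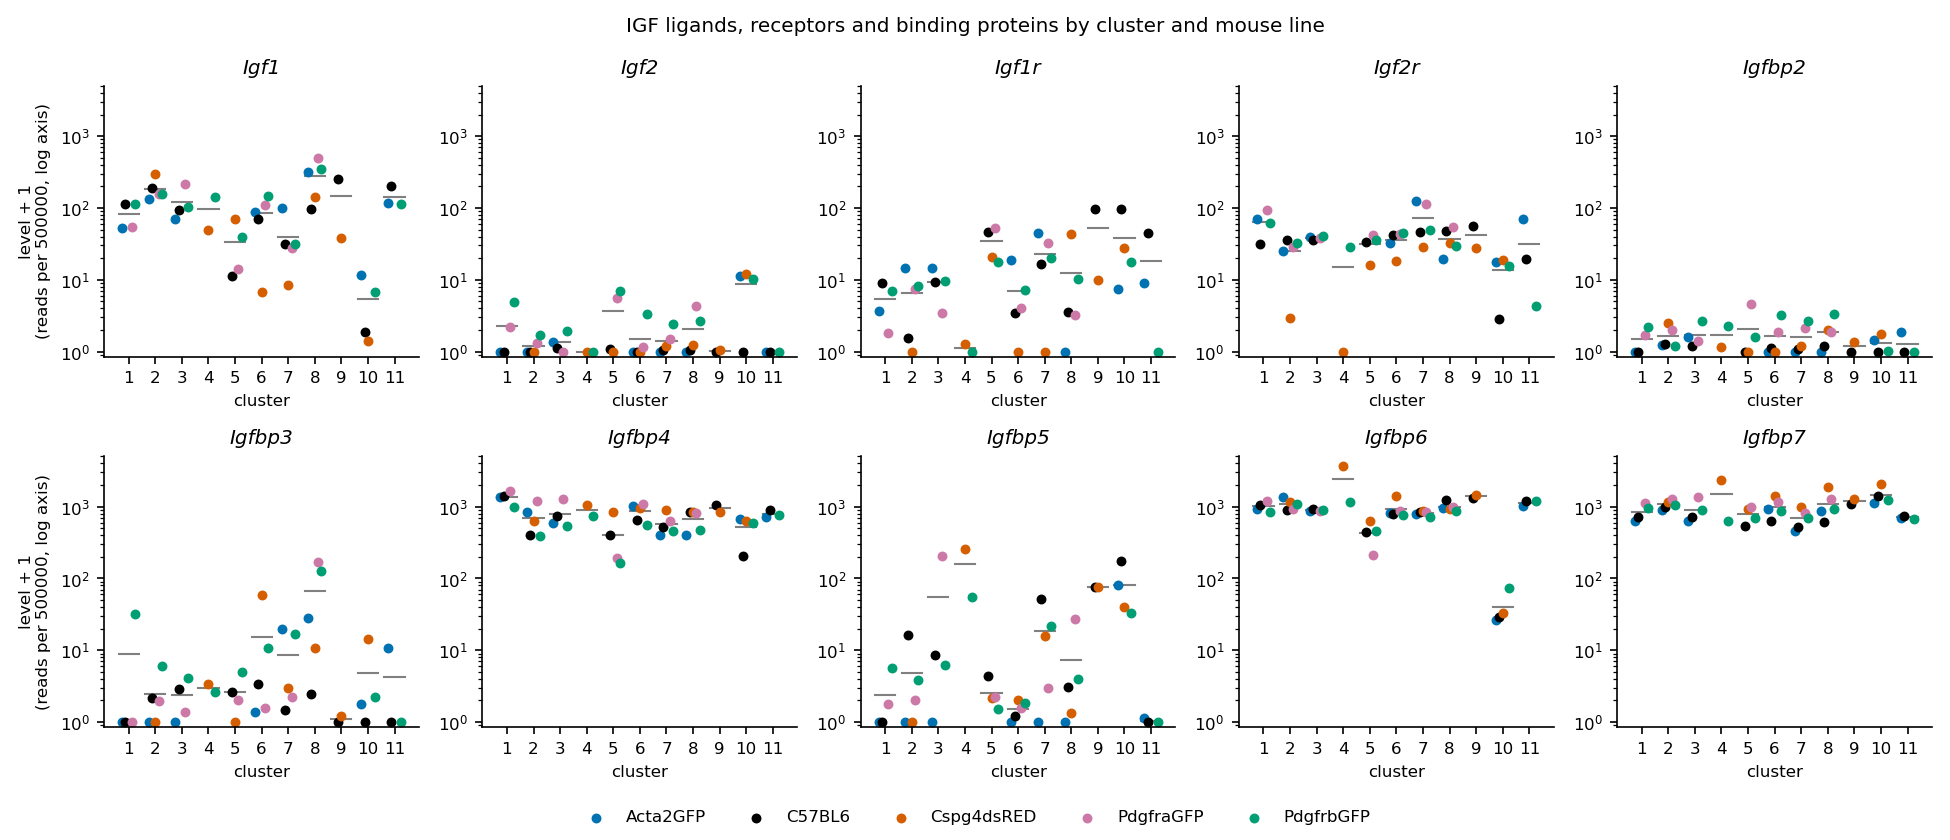
Level of each of the 10 genes by cluster (x axis, 1 to 11), as reads per 500000 endogenous reads plus 1 on a log axis. Each point is the mean over the cells of 1 mouse line with at least 3 cells in the cluster, coloured by line, and grey bars are means over lines. Igfbp4 and Igfbp7 stay between 162.9 and 2325 in every cluster and line, Igfbp6 is lowest in cluster 10, and Igfbp3 and Igfbp5 spread widely between lines.

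Mural cells differed from fibroblasts in 2 of the 10 genes. Igf1 and Igfbp6 fell in cluster 10, in a test where 6.20% of 16092 genes were called and 4.02% were called as lower. A call here needs an adjusted p under 0.05 and a log2 fold change of at least 2 in size. None of the 10 was called as higher. The median log2 fold change of the 10 genes was -1.09, beside -0.93 over all genes tested.

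Igf1, the ligand, was carried by the fibroblast clusters. Its level in cluster 10 was 10.8 in Acta2GFP, 0.873 in C57BL6, 0.398 in Cspg4dsRED and 5.77 in PdgfrbGFP cells. In the fibroblast clusters of the same lines it was 113.8, 83.95, 55.05 and 134.5. The highest mural value thus lay below the lowest fibroblast value. The means were 4.45 ± 4.85 and 96.8 ± 34.7 (SD, n = 4 lines), and the fitted log2 fold change was -5.27 ± 1.02 (SE, adjusted p = 0.00292, edgeR quasi-likelihood test). Over the 7 groups of 1 plate and line with at least 3 cells of both classes, the log2 difference of levels plus 1 ran from -6.04 to -3.29. The C57BL6 value rests on 3 mural cells. The call was lost when fibroblasts from wells sharing a plate row or column with a cluster 10 cell were left out, a setting that leaves 3 lines (log2 fold change -4.67, adjusted p = 0.304).

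Counted by cell, 0 cells of cluster 10 had at least 10 Igf1 reads after each cell was thinned to 50000 reads, which allows a share of up to 2.40% when 3 cells are taken as the limit, and of 2.91% by the exact 95% interval. In the fibroblast clusters 469 of 1348 cells did, or 34.8% (exact 95% interval 32.2 to 37.4; such intervals cover counting error only). At least 1 Igf1 read was present in 19.2% of cluster 10 cells, beside 34.4% for the fibroblast marker Pdgfra; in the fibroblast clusters the shares were 66.6% and 92.3%. Within fibroblasts Igf1 was uneven. The median cell had a level of 25.9, the 90th percentile was 316.2 and the highest cell 2319, and the top 68 of 1354 cells held 35.4% of the summed level. Macrophages are known to make Igf1. The mean level was 119.7 in the 879 fibroblast-cluster cells with no read of any of 6 immune markers and 116.6 in the 475 cells with one, and the medians were 32.7 and 16.7.

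Igfbp6, the binding protein with a preference for IGF2, was the other gene that fell. It was 25.5 in Acta2GFP, 27.8 in C57BL6, 31.9 in Cspg4dsRED and 73.2 in PdgfrbGFP mural cells. The fibroblasts of these lines had 952, 900, 1600 and 817. Every mural value lay below every fibroblast value, with PdgfrbGFP the highest of the mural ones, and within plate and line the log2 difference of levels plus 1 ran from -7.36 to -2.56. The means were 39.6 ± 22.6 and 1067 ± 360 (SD, n = 4 lines). The log2 fold change was -4.76 ± 0.46 (SE, adjusted p = 1.16e-06, edgeR quasi-likelihood test). This call held in each of 11 alternatives, with fold changes between -5.26 and -3.83 and adjusted p from 1.98e-22 to 0.00457. At least 10 thinned reads were found in 1311 of 1348 fibroblast-cluster cells (97.3%, interval 96.2 to 98.1) and in 16 cluster 10 cells (12.8%, 7.50 to 20.0). For comparison, the fibroblast proteoglycan gene Lum passed 10 reads in 93.1% and 15.2% of these cells.

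The promoters of these genes are shown because Igf1 and Igfbp6 were both called lower in cluster 10 and both called among the fibroblast clusters. RefSeq promoter entries (build GRCm38.p6, 250 bases before to 50 after an annotated start) matched all 10 genes. Each sequence is written 5′ to 3′ on the plus strand, which is the strand of both genes, and capitals mark matches on either strand to the TATA box TATAAA, to the CCAAT box, to the GC box GGGCGG, to the E-box CANNTG or to the CArG box, none of which overlap here. The Igf1 window lies at chr10:87860861-87861160 and that of Igfbp6 at chr15:102143936-102144235. By the gene spans given above, the Igf1 window lies inside the gene, downstream of its start. The Igfbp6 window ends before the start of that gene, so neither window covers the gene start given above.
Igf1: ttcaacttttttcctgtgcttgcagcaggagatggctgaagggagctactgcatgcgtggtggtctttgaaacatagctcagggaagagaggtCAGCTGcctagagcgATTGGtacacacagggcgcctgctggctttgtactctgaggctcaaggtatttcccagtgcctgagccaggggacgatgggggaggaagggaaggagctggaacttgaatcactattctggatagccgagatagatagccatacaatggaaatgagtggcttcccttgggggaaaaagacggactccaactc
Igfbp6: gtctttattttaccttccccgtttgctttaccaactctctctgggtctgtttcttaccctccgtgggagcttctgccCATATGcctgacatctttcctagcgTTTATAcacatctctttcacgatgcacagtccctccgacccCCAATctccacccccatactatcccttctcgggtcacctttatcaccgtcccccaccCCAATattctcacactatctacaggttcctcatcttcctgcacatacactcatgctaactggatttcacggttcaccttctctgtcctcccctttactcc
The Igf1 window holds 1 CCAAT box and 1 E-box, and the Igfbp6 window holds 2 CCAAT boxes, 1 TATA box and 1 E-box. Of 32851 promoters of this length, 37.4% hold a CCAAT box, 13.6% a TATA box, 72.3% an E-box, 35.7% a GC box and 1.63% a CArG box, and neither window holds the last 2. Their GC content is 52.3% and 49.7%, beside a median of 52.7%. These are matches of letters and nothing more.

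**Figure D2:**
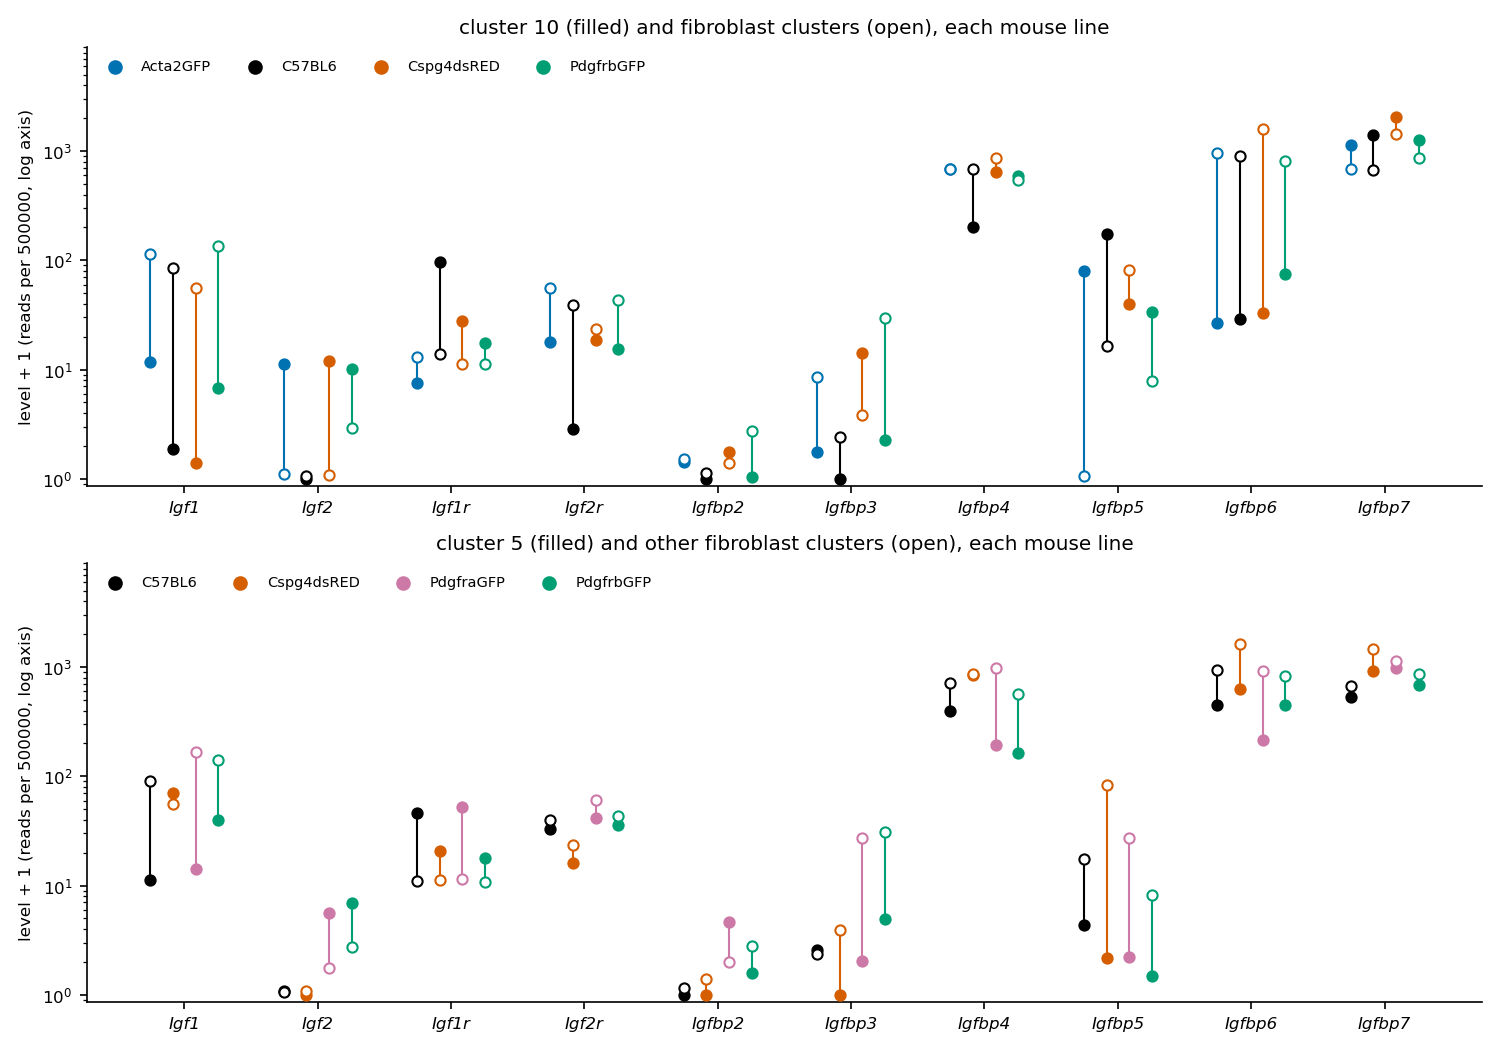
Levels (reads per 500000 endogenous reads plus 1, log axis) of the 10 genes in each mouse line. The upper panel sets cluster 10 (filled) against all fibroblast clusters (open), and the lower panel cluster 5 (filled) against the other fibroblast clusters (open). Lines join the values of 1 mouse line. Filled points lie below every open point for Igf1, Igfbp6 and Igf2r in the upper panel, of which Igf2r was not called, while Igfbp7 is higher in cluster 10 in 4 of 4 lines by a small step.

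The other ligand, Igf2, and the binding proteins Igfbp5 and Igfbp7 had positive fold changes in cluster 10 that did not pass the test. Igf2 was low in fibroblasts. Its mural level was 10.3 in Acta2GFP, 10.9 in Cspg4dsRED and 9.19 in PdgfrbGFP cells and 0 in the 3 cells of C57BL6, against 0.106, 0.0702, 1.91 and 0.0671 in the fibroblasts. The mural value was higher in 3 of 4 lines. The log2 fold change of 4.78 ± 1.97 (SE) had an adjusted p of 0.150 with edgeR and of 0.000106 with DESeq2, where Igf2 was called, and over 11 alternatives the adjusted p ran from 0.000106 to 1.00. After thinning, 20 mural cells had an Igf2 read (16%, interval 10.1 to 23.6), and 39 of 1348 fibroblast-cluster cells had one (2.89%, 2.07 to 3.93), while without thinning the shares were 19.2% and 9.97%. Within the fibroblasts, cluster 5 had Igf2 at 5.93 in PdgfrbGFP, 4.62 in PdgfraGFP, 0.0824 in C57BL6 and 0 in Cspg4dsRED cells, with 13.1 in 7 PdgfrbGFP cells of 1 plate, and 7.89% of its thinned cells had a read. Where the mural cells of a line have more of a gene's reads, more cells with the gene and more RNA per cell cannot be told apart in the line sums.

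Igfbp5, whose product also attaches to extracellular matrix, stood at 79.23, 171.6, 38.74 and 32.41 in Acta2GFP, C57BL6, Cspg4dsRED and PdgfrbGFP mural cells. The fibroblasts of these lines had 0.0513, 15.32, 80 and 6.91. In these line means Cspg4dsRED alone had more in fibroblasts, but its plates went opposite ways, with 38.1 in mural cells against 86.2 on one and 40.6 against 0.460 on the other. On 1 of the 3 PdgfrbGFP plates the fibroblasts also had more, with 5.27 in 4 mural cells against 9.53. In Cspg4dsRED, 85 of the fibroblasts were of cluster 9 and 17 of cluster 4, with the gene at 76.19 and 258.1. The log2 fold change was 2.98 ± 1.30 (SE, adjusted p = 0.178, edgeR), and DESeq2 called the gene (3.42, adjusted p = 0.0131; range over 11 alternatives 0.0131 to 0.501). Igfbp7 was higher in the mural cells of every line, at 1141, 1404, 2075 and 1256 against 684, 665, 1441 and 856 in Acta2GFP, C57BL6, Cspg4dsRED and PdgfrbGFP. Its log2 fold change of 0.66 ± 0.24 (SE, adjusted p = 0.0988, edgeR) became 1.59 (adjusted p = 5.13e-05) with the median gene set to 0 and 0.67 (adjusted p = 0.0209) with sums per plate and line, both under the log2 threshold of 2. Over 11 alternatives the adjusted p ran up to 0.464, and the ranges of both classes overlapped between lines.

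Igf1r, which encodes the signalling receptor, stood at 36.6 ± 40.8 in cluster 10 and 11.4 ± 1.35 in the fibroblasts of the same 4 lines. Its mural values ran from 6.50 in Acta2GFP to 96.5 in the 3 C57BL6 cells, a spread wider than the difference (log2 fold change 0.90 ± 1.22 SE, adjusted p = 0.765, edgeR). Igf2r, the clearance receptor, was lower in the mural cells of every line, at 16.8 against 54.8 in Acta2GFP, 1.88 against 38.1 in C57BL6, 17.7 against 22.5 in Cspg4dsRED and 14.5 against 41.9 in PdgfrbGFP, so that the line values of both classes did not overlap. The Cspg4dsRED value joins plates that went opposite ways, with 0.206 against 23.1 on one and 71.1 against 15.7 on the other, and 6 cells held 90.2% of the mural level. The test did not call the gene (-1.97 ± 1.10 SE, adjusted p = 0.325, edgeR). After thinning, an Igf2r read was found in 24 mural cells (19.2%, interval 12.7 to 27.2) and in 582 of 1348 fibroblast-cluster cells (43.2%, 40.5 to 45.9). Igfbp4, a soluble binding protein, was near level at 528 ± 220 and 697 ± 132.3, and its log2 fold change of -0.68 ± 0.36 (SE, adjusted p = 0.281, edgeR) turned to 0.25 with the median gene set to 0. Igfbp3 and Igfbp2 were low in both classes, at 3.79 ± 6.26 and 0.302 ± 0.355 in cluster 10.

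Counted by cell, Igfbp7 and Igfbp4 were widespread in both classes. At least 10 thinned reads of Igfbp7 were present in every mural cell and in 99.3% of fibroblast-cluster cells, and of Igfbp4 in 68.8% and 80.8%. Igfbp4 and Igfbp7 without Igfbp6 were found in 61.6% of mural and 1.71% of fibroblast-cluster cells, which restates the difference in Igfbp6. In cluster 5, 98.7% of cells passed 10 reads for Igfbp7, 77.6% for Igfbp6 and 44.7% for Igfbp4. These shares come from the same clustered values and carry no test.

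**Figure D3:**
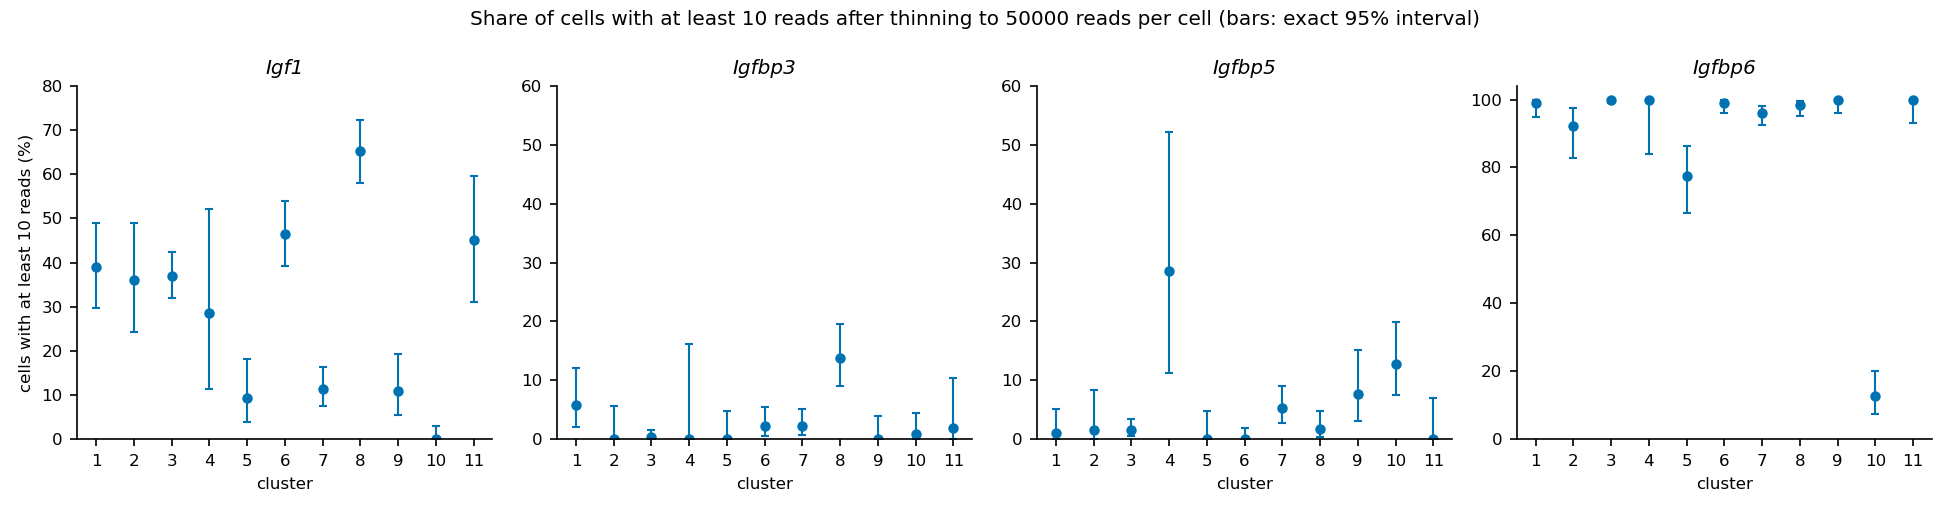
Share of cells in percent (y axis) with at least 10 reads of Igf1, Igfbp3, Igfbp5 or Igfbp6 in each cluster (x axis), after each cell was thinned to 50000 reads. Bars are exact 95% intervals over cells. Igf1 peaks at 65.4% in cluster 8 and is 0% in cluster 10, Igfbp3 reaches 13.7% in cluster 8, Igfbp5 28.6% in cluster 4, and Igfbp6 falls to 12.8% in cluster 10.

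In the sub-epithelial fibroblasts of cluster 5, no member passed both thresholds. The edgeR test called 0 of the 10 genes, where 0.762% of 16145 genes were called. At an unadjusted p under 0.05 there were 5 (Igf1, Igfbp4, Igfbp5, Igfbp6 and Igfbp7), beside 13.2% of all genes tested, and DESeq2 called 2 (Igf1r and Igfbp5), beside 8.68% of all genes. The median log2 fold change of the 10 genes was -1.02, beside -0.77 over all genes tested. Igfbp6 had the lowest adjusted p of the 10, though not the largest fold change. It stood at 446 against 939 in C57BL6, 624 against 1622 in Cspg4dsRED, 214.4 against 921 in PdgfraGFP and 452 against 835 in PdgfrbGFP cells. Every cluster 5 value lay below every other fibroblast value. The log2 fold change of -1.30 ± 0.23 (SE, adjusted p = 0.0179, edgeR) passed the p threshold but not the log2 threshold of 2. Over 10 alternatives it ran from -1.57 to -0.54 with an adjusted p of up to 0.338, and the p threshold was missed with the median gene set to 0 (0.338), with DESeq2 (0.246) and without Cspg4dsRED (0.119). Cluster 5 was high in the sub-epithelial markers Tnc (605.2 against 0.862 in the other fibroblasts), Bmp5 (296.38 against 3.89), Bmp7 (138.6 against 2.56) and Cxcl14 (774.97 against 79.9). Over lines, its sum of 9 fibroblast markers lay between 15371 and 25351. Within that list Col1a1 (7590 against 3651 in the other fibroblasts) and Col1a2 (6819 against 3133) stood higher in the means over lines and the other 7 lower, among them Cd34 (89.5 against 1107), Lum (122.97 against 1111), Fbln2 (86.97 against 656.6) and Pdgfra (165.96 against 297.3). The sum of 10 mural markers lay between 435.03 and 752.5 and the sum of 6 immune markers between 3.79 and 34, against 64.5 to 170 for the mural and 3.18 to 10.5 for the immune sum in the other fibroblasts. The part of these fibroblast, mural and immune markers in the cluster 5 values was not tested.

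Igf1 stood at 10.2 against 90.4 in C57BL6, 13.2 against 166.2 in PdgfraGFP and 38.6 against 139.2 in PdgfrbGFP cells, while the 3 cluster 5 cells of Cspg4dsRED had 70.02 against 54.7. The log2 fold change was -2.24 ± 0.66 (SE, adjusted p = 0.179, edgeR), and without Cspg4dsRED it was -2.77 with an adjusted p of 0.0329. Sums per plate and line also called it (-2.43, adjusted p = 0.0420), and over 10 alternatives the adjusted p ran up to 0.488. Igfbp5 was low in cluster 5 in all lines, at 3.38, 1.16, 1.21 and 0.495 against 16.4, 81.7, 26 and 7.22 in C57BL6, Cspg4dsRED, PdgfraGFP and PdgfrbGFP (-4.48 ± 1.24 SE, adjusted p = 0.162 with edgeR and 3.8e-05 with DESeq2). Igf1r was higher in each line, at 45.6 against 10.1 in C57BL6, 19.5 against 10.1 in Cspg4dsRED, 50.9 against 10.5 in PdgfraGFP and 16.8 against 9.87 in PdgfrbGFP. Its log2 fold change of 1.92 ± 0.94 (SE) had an adjusted p of 0.429 with edgeR and of 0.0222 with DESeq2. Igfbp4 stood at 399 ± 312.5 against 783 ± 182.6 (SD, n = 4 lines; adjusted p = 0.137, edgeR). The remaining 4 genes besides Igfbp7, namely Igf2, Igf2r, Igfbp2 and Igfbp3, had adjusted p between 0.588 and 0.925, and Igfbp7 had 0.341.

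Among the 9 fibroblast clusters outside cluster 5, Igf1 and Igfbp6 differed. The F test over clusters called these 2 of the 10 genes, where 2.54% of 14776 genes were called, with an adjusted p of 0.0337 for Igf1 and of 0.00727 for Igfbp6 (edgeR quasi-likelihood test). Igfbp5 (0.0928), Igfbp7 (0.117) and Igfbp4 (0.204) followed without passing. Igfbp5 stayed uncalled in 7 of 11 alternatives (adjusted p from 0.0109 to 0.397), Igfbp7 in 9 (0.00125 to 0.553) and Igfbp4 in all 11. Set against the mean of the other 8 clusters, 2 of 90 pairs of gene and cluster were called at a log2 fold change of at least 1, beside 0.595% of all pairs of gene and cluster. Both were of Igf1, higher in cluster 2 (1.68 ± 0.44 SE, adjusted p = 0.0314, with 2.29% of genes called in that contrast) and lower in cluster 7 (-2.04 ± 0.53 SE, adjusted p = 0.0413, with 1.24% called).

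Igf1 in cluster 2 was 133.8 for Acta2GFP, 187.5 for C57BL6, 295.04 for Cspg4dsRED, 153.5 for PdgfraGFP and 156.4 for PdgfrbGFP. In cluster 7 the same lines had 100.4, 30.1, 7.42, 26.4 and 30.2. The line means of the 2 clusters did not overlap, although cluster 2 held only 3 cells of Acta2GFP and 4 of Cspg4dsRED. The median depth was 113371 reads per cell in cluster 2 and 234821 in cluster 7, and with thinned cells the cluster 2 contrast was 1.05 (adjusted p = 0.242). The highest mean was that of cluster 8, at 279.9 ± 163.6 (SD, n = 5 lines), from 94.76 (C57BL6) and 141.9 (Cspg4dsRED) to 315.1 (Acta2GFP), 349.3 (PdgfrbGFP) and 498.3 (PdgfraGFP). Cluster 8 was not called (1.20 ± 0.43 SE, adjusted p = 0.273, edgeR). It stayed uncalled in 9 of 11 alternatives, at 0.88 to 1.58 with an adjusted p from 0.0219 to 0.830. Cluster 8 had the largest share of cells with at least 10 reads, 65.4% (interval 58 to 72.3). This share was 11.4% in cluster 7 and 35.9% in cluster 2, the last near the 34.8% of all fibroblast-cluster cells. The line medians in cluster 2 lay below the means, at 3.75 in C57BL6, 10.3 in PdgfraGFP, 47.97 in Acta2GFP, 58.1 in PdgfrbGFP and 69.95 in Cspg4dsRED. Those in cluster 7 were 1.01, 2.18, 101.20, 8.00 and 0 in the same order, so that on medians the clusters overlapped. From high to low the cluster means ran 8, 2, 9, 11, 3, 4, 6, 1, 7, 5 and 10, and the means differed by more than either SD in 2 of the 10 neighbouring pairs (1 and 7, 5 and 10). The place of cluster 9 rests on 3 C57BL6 cells at 251.47, since its 85 Cspg4dsRED cells had a mean of 37.3 and a median of 0, and 11.0% of its cells had at least 10 reads.

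These Igf1 calls were not firm. The F test lost its call without Acta2GFP, C57BL6, PdgfraGFP or PdgfrbGFP (adjusted p 0.0996, 0.115, 0.0869 and 0.401) and with thinned cells (0.0611). The cluster 2 contrast was kept in 7 of 11 alternatives and the cluster 7 contrast in 5 of 11, with the direction kept in all (1.05 to 2.91 and -2.49 to -1.79).

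**Figure D4:**
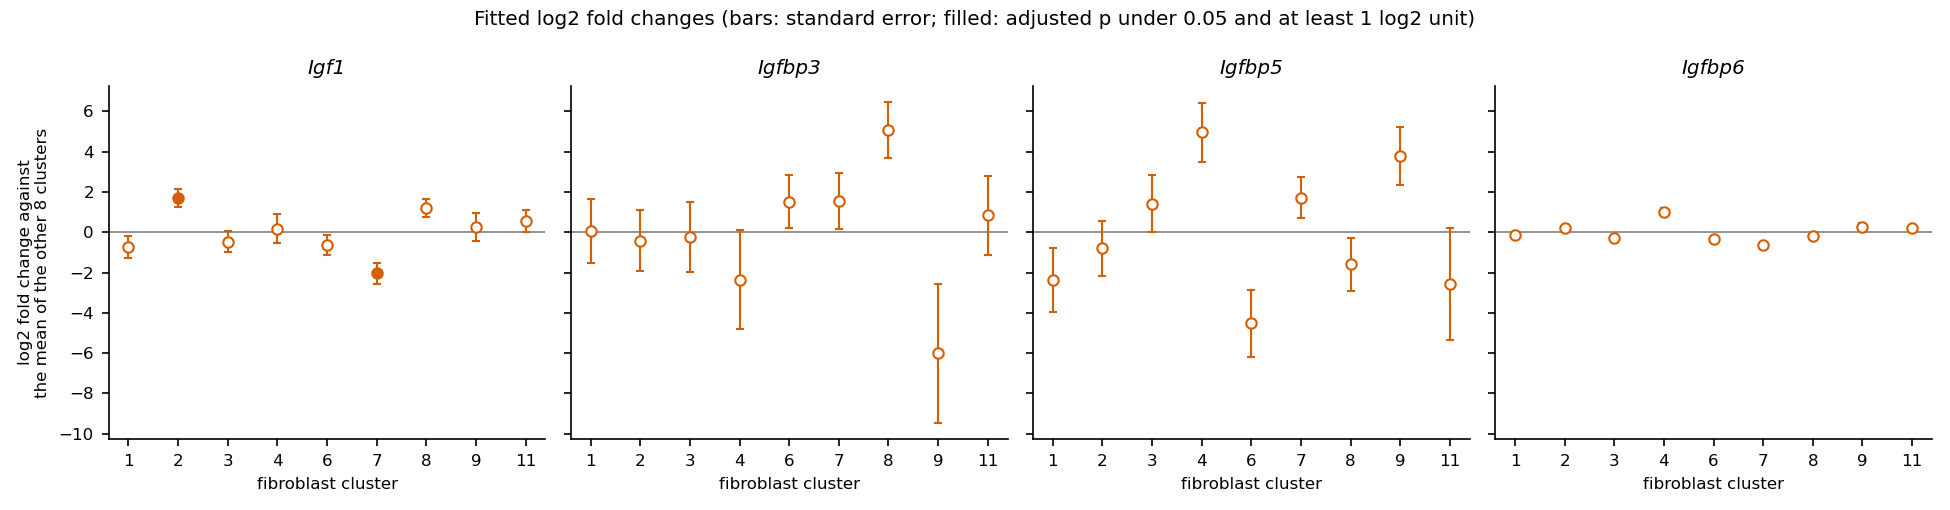
Fitted log2 fold change (y axis) of Igf1, Igfbp3, Igfbp5 and Igfbp6 in each of 9 fibroblast clusters (x axis) against the mean of the other 8. Bars are standard errors derived from the F value of each test, and filled points have an adjusted p under 0.05 and at least 1 log2 unit. Filled points are Igf1 in cluster 2 (1.68) and cluster 7 (-2.04), and Igfbp3 in cluster 8 (5.07) and Igfbp5 in cluster 4 (4.95) are the highest open points.

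Igfbp6 varied by smaller folds among fibroblasts. Its level was 2438 ± 1829 in cluster 4 (3731 in 17 Cspg4dsRED cells and 1145 in 4 PdgfrbGFP cells) and between 820 and 1388 in the other 8. The contrasts of cluster 4 (0.98 ± 0.20 SE, adjusted p = 0.0101, edgeR) and cluster 7 (-0.64 ± 0.14 SE, adjusted p = 0.0123) passed the p threshold but not the log2 threshold of 1. The cluster 4 value moved with the setting, from 0.04 to 1.76, and 6 of 11 alternatives called it (adjusted p from 0.000142 to 1.00 over the 11). Without Cspg4dsRED it was 0.26, a fit that leaves cluster 4 only its 4 PdgfrbGFP cells and so cannot show a spread within that cluster. Cluster 4 also had the lowest depth. The F test was lost without C57BL6 (adjusted p = 0.0982) or Cspg4dsRED (0.0554), with thinned cells (0.141) and with upper-quartile scaling (0.403). Igfbp7 was likewise lower in cluster 7 (-0.74 ± 0.17 SE, adjusted p = 0.0116, edgeR), again under 1 log2 unit.

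Igfbp3, a carrier of IGF in blood that is also made in tissues, was patchy. In cluster 8 it stood at 1.43 in C57BL6 and 9.60 in Cspg4dsRED, 26.78 in Acta2GFP, 124.2 in PdgfrbGFP and 168.1 in PdgfraGFP cells. The mean of 66.02 ± 75.33 (SD, n = 5 lines) was the highest of all clusters, but the contrast was not called (5.07 ± 1.39 SE, adjusted p = 0.0697, edgeR). DESeq2 (0.00113), sums per plate and line (0.0254), thinned cells (0.0101) and the fit without Acta2GFP (0.0398) called it, and over 11 alternatives the adjusted p reached 0.474. The top 68 of 1354 fibroblast-cluster cells held 94.7% of the summed Igfbp3 level. At least 10 thinned reads were seen in 42 fibroblast-cluster cells, 25 of them in cluster 8. In cluster 8, 22 of these 25 cells also had at least 10 Igf1 reads (88%, interval 68.8 to 97.5) against 61.8% of the other cells (53.7 to 69.4), at median depths of 195005 and 205748 reads. All but 3 of the 25 cells were PdgfrbGFP cells, and within that line the counts were 19 of 22 and 70 of 98 (86.4% and 71.4%), whose intervals overlap.

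Igfbp5 was held by few fibroblasts. The top 68 of 1354 cells held 97.2% of its summed level, the median cell had none, and the highest had 3135. At least 10 thinned reads were seen in 35 of 1348 cells, of which 12 were in cluster 7, 7 in cluster 9, 6 in cluster 4 and 5 in cluster 3. The share was 28.6% in cluster 4 (6 of 21 cells, interval 11.3 to 52.2), 7.69% in cluster 9 (3.15 to 15.2) and 12.8% in cluster 10 (7.50 to 20.0), and 0% in cluster 6, where a count of 0 allows up to 1.60%. In these 35 cells the summed level of 9 fibroblast markers had a median of 12014, beside 16805 in the 1313 fibroblast-cluster cells below 10 reads, and that of 10 mural markers 44.2 beside 39.8. In cluster 3, 13 PdgfraGFP cells had a mean of 203.1, while Acta2GFP had 0, C57BL6 7.71 and PdgfrbGFP 5.19. The contrast of cluster 4 was 4.95 ± 1.46 (SE, adjusted p = 0.140, edgeR). It stayed uncalled in 9 of 11 alternatives, with fold changes from 3.59 to 6.55. Without Cspg4dsRED or without PdgfrbGFP, cluster 4 has only 1 line left.

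Igfbp4 and the receptors showed no called difference among fibroblast clusters. Igfbp4 was highest in cluster 1 at 1350 ± 260.6 (SD, n = 4 lines) and lowest among the 9 in cluster 7 at 581 ± 190.7. Igf2r ran from 13.9 ± 19.7 in cluster 4 to 71.4 ± 43.3 in cluster 7, and Igf1r from 0.136 ± 0.192 in cluster 4 to 52.4 ± 61.4 in cluster 9, where the 3 C57BL6 cells had 95.8 and the 85 Cspg4dsRED cells 9.02. Igf2 did not exceed a mean of 1.27 in these clusters, and Igfbp2 did not exceed 0.866. After thinning, a read of Igfbp2 was seen in 5.12% of fibroblast-cluster cells and one of Igf2 in 2.89%, against 11.0% and 9.97% without thinning.

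Cells of Acta2GFP and PdgfrbGFP mice shared 1 plate, which sets the lines side by side within 7 clusters, though not under like handling. According to the study's methods, elastase was added to isolate Acta2-positive cells from Acta2GFP mice, and the sort could differ with the reporter. Line, dissociation and sort cannot be told apart in these differences. Igf1 was higher in Acta2GFP in 6 of the 7, among them cluster 7 (100.4 in 9 cells against 18.15 in 22 cells) and cluster 8 (315.1 in 11 cells against 225.9 in 35 cells). Igfbp4 was lower in Acta2GFP in 6 of the 7. Igfbp6 and Igfbp7 were split 4 to 3 and 3 to 4. Igfbp5 was at or near 0 in the fibroblasts of both lines on this plate (0.0513 and 0.157), whereas mural cells on it had 79.2 and 39.3. On the other plates the fibroblast mean of Igfbp5 ran from 0.460 in 10 Cspg4dsRED cells to 86.2 in the Cspg4dsRED cells of another plate. Each line on this plate is 1 sample, so no test was made.

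Of 36 further genes of the pathway, 31 passed the filter for cluster 10 and 4 were called, all lower, beside 6.20% of all genes called and 4.02% called as lower. These were Stc2 (-4.68 ± 0.77 SE, adjusted p = 0.000571), a secreted inhibitor of the proteases that cut Igfbp4, Adam12 (-5.59 ± 1.61, 0.0444), a metalloprotease that can cut binding proteins, Htra1 (-2.45 ± 0.62, 0.0216), a secreted serine protease, and Lrp1 (-2.41 ± 0.40, 0.000554), an endocytic receptor that can bind Igfbp3. All p are from edgeR. The median log2 fold change of the list was -1.64, beside -0.93 over all genes. Stc2 kept its call in 11 of 11 alternatives, Lrp1 in 10, Htra1 in 6 and Adam12 in 5. With the median gene set to 0, only Stc2 of the 4 stayed called.

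In cluster 5, 30 pathway genes were tested and 2 were called, beside 0.762% of all genes. Stc2 fell (-5.98 ± 0.84 SE, adjusted p = 0.00451, edgeR), from 242.5 ± 93.8 in the other fibroblasts (SD, n = 5 lines) to 8.22 ± 10.7 (n = 4 lines). Htra1 rose (2.09 ± 0.20, 0.000491), to 1108 ± 269.5 from 257.4 ± 48.9, although 3 of 10 alternatives put its log2 fold change just under 2 (1.91 to 1.99). Stc2 was also the only pathway gene called among the 9 fibroblast clusters (adjusted p = 0.0191), where 2.54% of all genes were called. Pappa, the protease that Stc2 inhibits, stood at 65.7 ± 100.8 in cluster 5, 7.94 ± 5.92 in the other fibroblasts and 0.0860 ± 0.172 in cluster 10, and was not called. The liver-type genes Igfbp1 and Igfals had 0 and 1 read in all cells.

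The genes most like each member were found by Pearson's r of log2(level + 1) over the 43 groups of cluster and line with at least 3 cells, among 9810 genes. The points share lines, plates and depth, and r is given as a description. Igfbp6 followed the secreted-protein genes Rnase4, Selenop and Serpinf1 (r = 0.94 each). Igf1 followed Abca8a (0.81), Serpinf1 (0.76) and Lum (0.75). The r between Igf1 and Igfbp6 was 0.70. Igfbp3 was most like Sult1e1 (0.79), followed by Smoc1 (0.61) and Pibf1 (0.60), Igf2r like Pdgfd (0.75), Sh3d19 (0.73) and Sec24d (0.71), and Igf1r like Arhgap17 (0.65), Sccpdh (0.65) and Cbfa2t3 (0.62). Igfbp5 was most like Mgst3 (0.67), Kcnj8 (0.60), a mural marker, and Pnpla2 (0.60). Igfbp4 had no close match, with Fgfr1 (0.59), Tnfsf12 (0.58) and Gsn (0.58). Igfbp7 was most like Polr2b (0.72), the gene whose 3′ end overlaps its own, then Gm37376 (0.62) and Ubb (0.61).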

How the data were processed

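Single cells of the mouse bladder were made into Smart-seq2 libraries, and the authors deposited raw read counts per gene and cell, with no normalization. According to the study's methods, single reads were trimmed, TopHat2 placed them on GRCm38, samtools took out what the text names doublets, and featureCounts made the table. The annotation release and strand setting are not given in the sources used here. Cells of poor quality (low reads, few genes, much spike-in or mitochondrial RNA) were dropped before deposit. ERCC spike-in rows (92) were left out of library sizes. Smart-seq2 carries no molecular identifiers, so reads are not independent molecules.

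Counts were summed per mouse line and class of cells, for lines with at least 3 cells in both classes, and tested with edgeR 4.0.16 in R 4.3.3 (TMM scaling, filterByExpr, quasi-likelihood test, line as a block, Benjamini-Hochberg over all genes). The comparisons were cluster 10 against the fibroblast clusters, cluster 5 against the other fibroblast clusters, and differences among the other 9 fibroblast clusters. Each SE is the size of the log2 fold change divided by the square root of the F value of its test. It was not estimated apart from that test. The tests were checked on simulated counts with the same spread set for every gene, and the outcome is not reported here. A gene left uncalled is not shown to be unchanged. For shares, cells were cut down at random to 50000 endogenous reads, leaving out 6 that were shallower, with exact Clopper-Pearson 95% intervals, and a count of 0 was taken to allow 3. Alternatives were DESeq2 1.42.0, other scalings, no low-count filter, sums per plate and line, thinned cells, each line left out, and fibroblasts away from mural wells. The genes named were the 10 members, up to 6 called pathway genes per comparison by fold, and the 3 genes most like each member whose highest cluster mean was at least 50 (among genes with a mean of at least 5). Members, lists and tests were chosen with earlier results of these data known. Python 3.11.15, pandas 2.3.3 and matplotlib 3.10.9 served for tables and plots.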

Additional observations from a re-analysis of the deposited data

Results flagged for a closer look

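Of 55 member and cluster groups with 4 or 5 lines and a mean level of at least 5, 9 had a line far from the others by Dixon's test at 95%, a test that flags about 1 group in 20 by chance. Igf1 in cluster 7 was 100.4 in Acta2GFP, with the other 4 lines between 7.42 and 30.2. Igf2 in cluster 10 was 0 in the 3 C57BL6 cells and between 9.19 and 10.9 in the others. Igf1r in cluster 8 was 42.6 in Cspg4dsRED. Igfbp3 was 31.5 in PdgfrbGFP in cluster 1 and 58.6 in the 3 Cspg4dsRED cells of cluster 6. Igfbp5 was 203.1 in PdgfraGFP in cluster 3 and 26.4 in the same line in cluster 8. Igfbp6 was 1419 in the 3 Cspg4dsRED cells of cluster 6 and 73.2 in PdgfrbGFP in cluster 10, where the plates of that line had 138.5, 21.91 and 114.05. What set these lines apart was not tested.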

How the results depend on the processing

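No paired analysis was possible because the labels give cells no replicate number, as far as a block by such a number goes, while every fit did compare classes within mouse lines. In cluster 10, 2 members were called in 9 of 11 alternatives, 4 with DESeq2 and 1 with fibroblasts away from mural wells. In cluster 5, DESeq2 called 2 members, sums per plate and line 1, and leaving out each line 0 to 1. Among the 9 fibroblast clusters, upper-quartile scaling and thinned cells each called 1 member, sums per plate and line 5, and leaving out each line 0 to 2. Of the pairs of member and cluster, 1 was called with upper-quartile scaling, 5 with DESeq2, 6 with sums per plate and line, 4 with thinned cells, and 1 to 2 without each line. The cause was not tested.

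Of all genes tested in cluster 10, 18.6% were called with DESeq2, 15.9% with sums per plate and line, 2.11% with fibroblasts away from mural wells and 2.88% to 5.79% without each line, against 6.20%. In cluster 5 the share was 8.68% with DESeq2, 4.62% with sums per plate and line, 2.23% with thinned cells and 0.559% to 1.31% without each line, against 0.762%. The F test called 1.68% with no filter, 6.09% with DESeq2, 6.57% with sums per plate and line and 0.324% to 1.77% without each line, against 2.54%. Single-cluster contrasts called 0.996% with upper-quartile scaling, 3.90% with DESeq2, 1.16% with sums per plate and line and 0.138% to 0.903% without each line, against 0.595%.

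Setting the median gene to 0 turned the sign of uncalled values, namely Igfbp4 in cluster 10 (0.25) and Igf2r (0.12), Igfbp2 (0.03) and Igfbp7 (0.34) in cluster 5, and upper-quartile scaling that of Igfbp6 in cluster 6 (0.56). Igfbp2 had no value in cluster 10 with thinned cells, and DESeq2 gave no adjusted p for Igf2 and Igfbp2 over the 9 clusters. Of 650 recomputed levels, 643 stayed within 1 SD between lines. Among the 7 others, reads summed before scaling put Igf1 in cluster 2 at 261.4 and in cluster 11 at 199.7.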
